A study of Oryctolagus cuniculus with 9 samples.

Results

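The genes described here carry out MHC class I and class II antigen presentation. They are the rows named CD74, RLA-DR-ALPHA and CIITA, which serve class II, and B2M, NLRC5, TAP1, TAP2, TAPBP, PSMB8 and PSMB9, which serve class I. All 10 symbols were found among the 28788 gene rows of the deposited count table, and all 10 were among the 17102 genes with enough counts to be tested. The members were chosen by symbol, with no threshold on their values, but the list was proposed with the differences between the S9, S7 and S6 counts of these same libraries in view. The differences of the members are therefore given as a description of these libraries, and the adjusted p-values beside them only place each member in the fit across all genes.

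The study tested a stent built of hydrogel layers for mending the urethra of rabbits and sequenced tissue to ask how repair comes about. Messenger RNA of urethral tissue was sequenced in 9 libraries, 3 each with the codes S9, S7 and S6 in their titles. The sources used here do not say which stent, treatment, time, strain, age or animal a code marks, or whether any code is a control or a healthy tissue. Differences are log2 fold changes (also log2 ratios) given as S9 over S6, S7 over S6 and S9 over S7, and nothing shows whether the libraries of a code came from separate animals, so the p-values measure only the spread between these libraries. Each library held between 35127085 and 36832773 counts. A mitochondrial transcript, ATP6, was scarce in 1 library of each group (S9_4, S7_3 and S6_4), at 21.5 to 25.9 CPM where the remaining 6 held 1946 to 3258 CPM. Levels of 1 gene across libraries are CPM, counts scaled to the library size after TMM normalization, and levels of different genes are compared only in the FPKM deposited by the authors, which divide by gene length.

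MHC molecules display peptides on the cell surface for T cells. Class I molecules, on nearly all nucleated cells, carry peptides that the proteasome cuts in the cytosol and that the TAP transporter moves into the endoplasmic reticulum, where they are loaded onto a heavy chain paired with beta-2-microglobulin. Class II molecules, mostly on dendritic cells, macrophages and B cells, are built from an alpha and a beta chain that the invariant chain escorts to endosomes, where cathepsins cut it away and a DM molecule exchanges its last fragment for a peptide. Interferon-gamma induces both routes, through the regulators CIITA for class II and NLRC5 for class I.

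The class II members had the largest log2 fold changes of the 10 in both comparisons with S6. CD74, the invariant chain, was at 334.4, 542.4 and 788.9 CPM in S9_1, S9_2 and S9_4, at 802.8, 727.2 and 772.3 CPM in S7_2, S7_3 and S7_4, and at 831.3, 4963 and 1955 CPM in S6_2, S6_3 and S6_4. Every S9 and S7 library lay below every S6 library, but S6_2 exceeded the highest S7 library by little, while S6_3 stood far above all others. The log2 fold change of CD74 was -2.22 (SE 0.59, edgeR adjusted p = 0.0426) for S9 over S6 and -1.75 (SE 0.58, edgeR adjusted p = 0.177) for S7 over S6.

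RLA-DR-ALPHA, the alpha chain of the rabbit class II DR molecule, followed the same order. It was at 216.0, 264.4 and 468.7 CPM in S9_1, S9_2 and S9_4, at 410.1, 388.4 and 462.2 CPM in S7_2, S7_3 and S7_4, and at 570.8, 3248 and 1399 CPM in S6_2, S6_3 and S6_4. The S9 and S7 libraries overlapped each other and lay below S6. The log2 fold change was -2.46 (SE 0.57, edgeR adjusted p = 0.0313) for S9 over S6 and -2.05 (SE 0.56, edgeR adjusted p = 0.137) for S7 over S6.

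CIITA, the transcriptional coactivator that switches class II genes on, had the widest range of all members. It was at 3.63, 11.9 and 8.50 CPM in S9_1, S9_2 and S9_4, at 12.7, 12.8 and 18.9 CPM in S7_2, S7_3 and S7_4, and at 11.3, 137.1 and 28.4 CPM in S6_2, S6_3 and S6_4. S6_3 exceeded S9_1 by 37.8 times and the next highest library, S6_4, by 4.82 times, while S6_2 lay within the range of the S9 libraries. The log2 fold change for S9 over S6 was -2.88 with an SE of 0.84, and CIITA did not pass the threshold (edgeR adjusted p = 0.0552). For S9 over S7 it was -0.89 (SE 0.80, edgeR adjusted p = 0.715), although the S9 libraries lay below the S7 libraries.

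**Figure D1:**
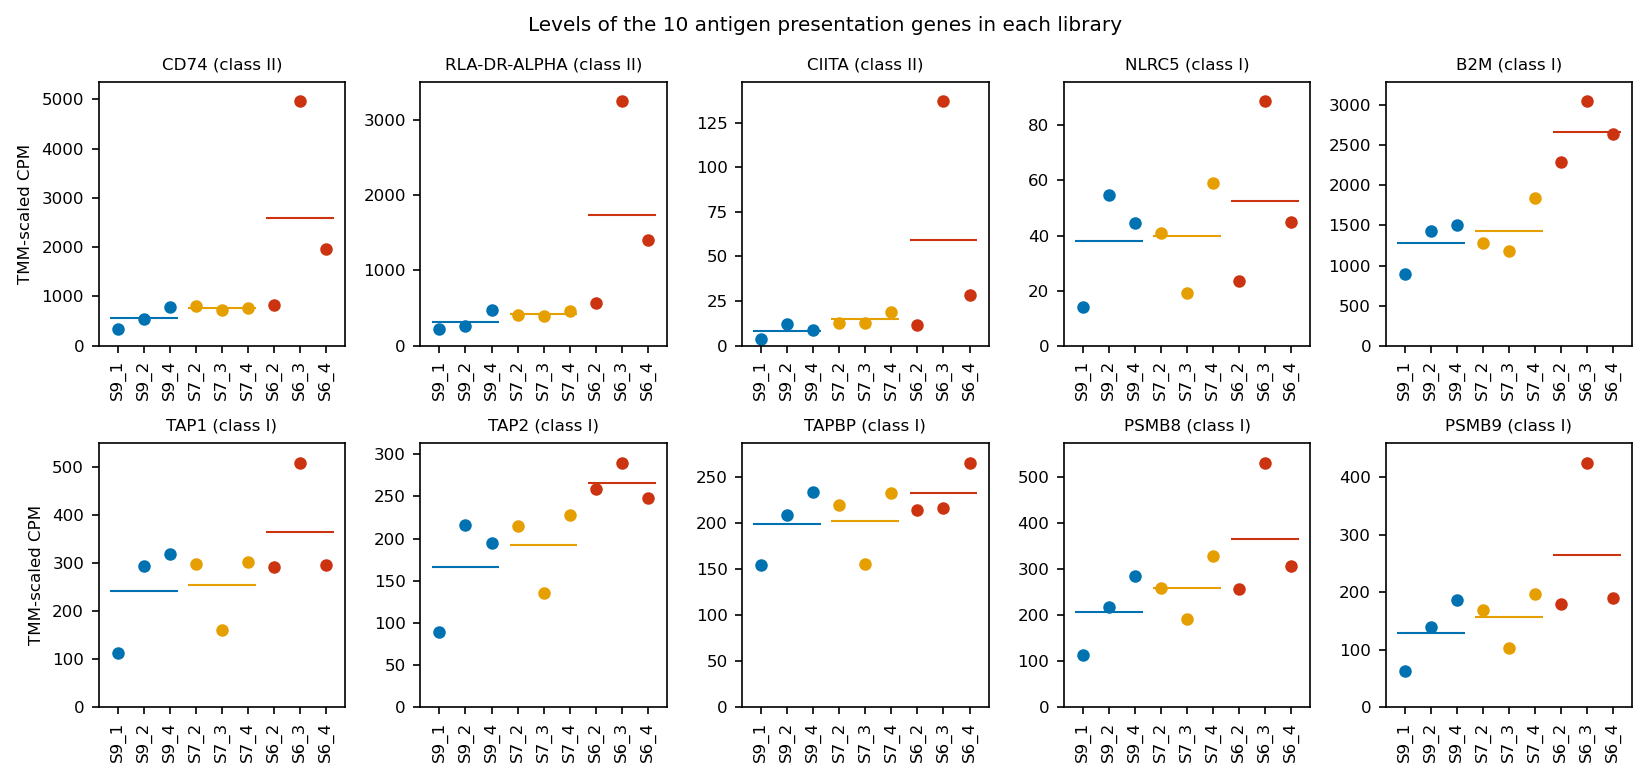
Level of each of the 10 genes in TMM-scaled CPM (vertical axes start at 0) in the 9 libraries, with the code of each library on the horizontal axis; horizontal lines mark group means (n = 3). CD74, RLA-DR-ALPHA and CIITA peak in S6_3, B2M separates S6 from the other groups, and all 10 genes are lowest in S9_1.

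Other class II chains had a similar pattern. RLA-DMA and RLA-DMB encode the chains of the DM molecule, and these are the only class II chain rows of the pathway list found in the table, out of 16 names listed. RLA-DMB was at 20.3 ± 10.9 CPM in S9, 29.9 ± 1.28 CPM in S7 and 130.5 ± 128.8 CPM in S6 (SD, n = 3), and was called lower in S9 than in S6 (log2 ratio -2.68, SE 0.69, edgeR adjusted p = 0.0395). RLA-DMA, averaging 28.1 ± 17.7 CPM in S9 against 134.8 ± 124.4 CPM in S6, was not called (log2 ratio -2.26, edgeR adjusted p = 0.0612, and -1.18 without S6_3). The DR beta chain RLA-DRB1, added after its values were seen, was at 149.5 ± 83.1 CPM in S9, 203.3 ± 40.3 CPM in S7 and 960.1 ± 799 CPM in S6 (S9 over S6 log2 ratio -2.68, edgeR adjusted p = 0.0366). RLA genes are members of a family with similar copies, so reads can be split between rows, and the strand setting of the counting is not given in the sources used here.

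Endosomal processing genes prepare class II molecules for peptide. Of 9 tested genes of this kind 5 were called lower in S9 than in S6 and none higher. Among all genes tested, 6.34% were called lower and 6.02% higher. The median log2 fold change of the 9 was -0.97, against -0.011 over all genes tested. Cathepsin S, CTSS, which cuts the invariant chain, was at 91.4, 132.3 and 169.8 CPM in S9_1, S9_2 and S9_4 and at 317.9, 529.5 and 434.7 CPM in S6_2, S6_3 and S6_4 (log2 ratio -1.70, SE 0.27, edgeR adjusted p = 0.0173). Those groups did not overlap, and the highest S9 library was well below the lowest S6 library. Cathepsin H, CTSH, had a log2 fold change of -1.57 (edgeR adjusted p = 0.0227) and the invariant chain protease SPPL2A of -0.97 (edgeR adjusted p = 0.0235). CTSB, another cathepsin, and MARCHF1, a ubiquitin ligase that removes class II molecules from the surface, were the other called members. In S7 over S6 edgeR called none of the 9, beside 0.0643% of all genes called lower. At an unadjusted p below 0.05, 4 were lower, as were 8.44% of all genes.

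The promoter complex on which CIITA acts differed by less. RFX5, a subunit that binds the X box of class II promoters, was at 24.4 ± 3.87 CPM in S9, 26.5 ± 1.31 CPM in S7 and 41.5 ± 11.1 CPM in S6, and was the only member called of 7 in S9 over S6 (log2 ratio -0.77, SE 0.21, edgeR adjusted p = 0.0493). RFXAP, its partner, had a log2 fold change of 0.68 (edgeR adjusted p = 0.135, and 1.02 without S6_3) and NFYA, a CCAAT-binding subunit, of 0.44 (edgeR adjusted p = 0.137). The median over the 7 genes was -0.22, and 6.34% of all genes tested were called lower in S9 than in S6.

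Among the class I genes, B2M showed the clearest separation. B2M, the light chain shared by class I molecules, was at 896.8, 1427 and 1510 CPM in S9_1, S9_2 and S9_4, at 1281, 1187 and 1837 CPM in S7_2, S7_3 and S7_4, and at 2287, 3053 and 2647 CPM in S6_2, S6_3 and S6_4. Both S9 and S7 lay wholly below S6. The log2 fold change was -1.06 (SE 0.27, edgeR adjusted p = 0.0377) for S9 over S6, a 2.08-fold lower level, and -0.89 (SE 0.27, edgeR adjusted p = 0.150) for S7 over S6.

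The row RLA-A3, a class I heavy chain, did not follow its light chain. RLA-A3 was added after its values were seen. It was at 1045, 1591 and 1781 CPM in S9_1, S9_2 and S9_4, at 1822, 818.3 and 1443 CPM in S7_2, S7_3 and S7_4, and at 1194, 1395 and 1433 CPM in S6_2, S6_3 and S6_4 (log2 ratio 0.14 for S9 over S6, SE 0.31, edgeR adjusted p = 0.810). The sign of this small difference turned without S9_4, at -0.0099. The ratio of B2M to RLA-A3 in FPKM was 2.27 to 2.40 in the S9 libraries, 1.89, 3.89 and 3.41 in the S7 libraries and 5.14, 5.87 and 4.95 in the S6 libraries. S9 and S7 both lay below S6 with no overlap, and S7_2 was lower than any S9 library. This ratio was chosen after its values were seen and was not tested, and the reads of class I heavy chains can be shared between similar copies.

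NLRC5, the class I counterpart of CIITA, overlapped between all groups. It was at 14.2, 54.9 and 44.4 CPM in S9_1, S9_2 and S9_4, at 40.9, 19.0 and 59.2 CPM in S7_2, S7_3 and S7_4, and at 23.6, 88.9 and 44.7 CPM in S6_2, S6_3 and S6_4. The lowest and the highest values within S9 and within S6 differed more than the group means. The log2 fold change was -0.47 (SE 0.62, edgeR adjusted p = 0.648) for S9 over S6, and its sign turned without S6_3, at 0.16.

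The transporter and loading genes differed by less than the class II genes. TAP1 was at 113.3, 294.1 and 318.9 CPM in S9_1, S9_2 and S9_4, at 297.4, 161.3 and 301.1 CPM in S7_2, S7_3 and S7_4, and at 291.7, 509.1 and 295.3 CPM in S6_2, S6_3 and S6_4. TAP2, the other chain of the transporter, was at 89.0, 216.2 and 194.5 CPM in S9_1, S9_2 and S9_4, at 214.3, 134.9 and 227.4 CPM in S7_2, S7_3 and S7_4, and at 258.8, 290.1 and 248.4 CPM in S6_2, S6_3 and S6_4. For TAP1 the groups overlapped, and S9_1 and S7_3 were low. For TAP2 S9 and S7 lay below S6, with a log2 fold change of -0.67 for S9 over S6 (SE 0.32, edgeR adjusted p = 0.192). Without S9_1 the log2 fold change for S9 over S6 was -0.24 for TAP1, -0.36 for TAP2 and -0.058 for TAPBP. TAPBP, tapasin, which bridges TAP and the class I molecule, had the narrowest range of the 10 genes, between 154.7 CPM in S9_1 and 265.7 CPM in S6_4, a ratio of 1.72 (log2 ratio -0.22 for S9 over S6, SE 0.21, edgeR adjusted p = 0.514). Of 7 further peptide-loading genes tested edgeR called none between S9 and S6. At an unadjusted p below 0.05, 1 of these 7 was lower, beside 15.8% of all genes. Among the 7, PDIA3, SEC61A1 and TAPBPL had the smallest p, with log2 fold changes of -0.44, -0.35 and -0.37. Their edgeR adjusted p were 0.133, 0.188 and 0.261, and DESeq2 and limma called none of these 3.

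PSMB8 and PSMB9 replace catalytic subunits of the standard proteasome to form the immunoproteasome, which favours peptides suited to class I. PSMB8 was at 113.4, 218.0 and 284.9 CPM in S9_1, S9_2 and S9_4, at 258.0, 190.6 and 327.8 CPM in S7_2, S7_3 and S7_4, and at 257.1, 530.7 and 307.3 CPM in S6_2, S6_3 and S6_4. PSMB9 was at 63.3, 138.8 and 186.8 CPM in S9_1, S9_2 and S9_4, at 168.4, 102.1 and 197.4 CPM in S7_2, S7_3 and S7_4, and at 179.0, 425.3 and 190.0 CPM in S6_2, S6_3 and S6_4. In both genes S6_3 was high and S9_1 low, and the remaining libraries of the 3 groups overlapped. The log2 fold changes for S9 over S6 were -0.83 for PSMB8 and -1.03 for PSMB9, and neither was called (edgeR adjusted p = 0.180 and 0.169). Without S6_3 they were -0.45 for PSMB8 and -0.50 for PSMB9.

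Other proteasome genes leaned the same way. Of 4 immunoproteasome partners, PSME1, a subunit of the PA28 activator, and PSMB10, the remaining inducible catalytic subunit, were called lower in S9 than in S6. PSME1 averaged 219.0 ± 41.1 CPM in S9 against 458.5 ± 136.3 CPM in S6 (S9 over S6 log2 ratio -1.07, SE 0.23, edgeR adjusted p = 0.0271), and PSMB10 90.5 ± 19.5 CPM in S9 against 179.2 ± 66.4 CPM in S6 (S9 over S6 log2 ratio -0.98, edgeR adjusted p = 0.0491). PSME2, the other chain of PA28, was not called (log2 ratio -1.13, edgeR adjusted p = 0.0599, and -0.58 without S6_3). The standard catalytic subunits PSMB5, PSMB6 and PSMB7 had log2 fold changes of -0.50, -0.40 and -0.57 and were not called (edgeR adjusted p = 0.0945, 0.116 and 0.0543). Without S6_3 those of PSMB5 and PSMB6 were -0.33 and -0.24. Of 11 further subunits of the 20S core 3 were called lower, PSMA6 (log2 ratio -0.96), PSMA1 (-0.66) and PSMA2 (-0.77). Beside these counts, 6.34% of all genes tested were called lower in S9 than in S6.

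The swap between inducible and standard subunits can be read as a ratio of FPKM within a library. PSMB8 over PSMB5 was 0.788, 1.26 and 1.70 in the S9 libraries, 1.57, 0.865 and 1.63 in the S7 libraries and 1.35, 1.93 and 1.40 in the S6 libraries. PSMB9 over PSMB6 was 0.692, 1.32 and 1.87 in S9, 1.59, 0.794 and 1.65 in S7 and 1.62, 2.77 and 1.51 in S6. The groups overlapped in both ratios, and S9_1 and S7_3 were the lowest libraries. PSMB10 over PSMB7 was 0.672, 0.859 and 0.775 in S9, 0.917, 0.639 and 0.818 in S7 and 0.756, 1.34 and 0.943 in S6, and overlapped too.

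In all, 3 of the 10 members were called lower in S9 than in S6 by edgeR and none higher, beside 6.34% of all genes tested called lower and 6.02% called higher. At an unadjusted p below 0.05, 4 were lower, as were 15.8% of all genes. The members' median log2 fold change was -0.93, against -0.011 over all genes tested, and all 10 were negative, as were 50.7% of all genes. The S9 libraries lay wholly below the S6 libraries in 4 members, CD74, RLA-DR-ALPHA, B2M and TAP2, as in 17% of all genes. By class, 2 of 3 class II members were called, with a median of -2.46, and 1 of 7 class I members, with a median of -0.67. The calls lay near the threshold. That of CD74 was lost by edgeR without any of 8 single libraries, at adjusted p of 0.0519 to 0.148, and held only without S6_2, and without S6_3 its log2 fold change was -1.31. That of RLA-DR-ALPHA was lost without S6_3 (-1.63, edgeR adjusted p = 0.0574), S6_4 (0.0728), S7_4 (0.0511), S9_1 (0.122) or S9_2 (0.107), and that of B2M without S6_3 (0.0753), S6_4 (0.0964), S9_1 (0.130) or S9_2 (0.101). CIITA had a log2 fold change of -1.30 without S6_3, and was called without S6_2 (edgeR adjusted p = 0.0254) and by DESeq2 (0.00105). Calls over all genes fell too, from 2115 of 17102 genes tested with all 9 libraries. They numbered 0 of 17557 without S9_1, 4 of 17553 without S9_2, 89 of 17531 without S6_4, 1025 of 17536 without S6_3 and 1197 of 17585 without S7_4.

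In S7 over S6 no member was called by edgeR, beside 0.0643% of all genes called lower and 0.0468% called higher, and 4 members were lower at an unadjusted p below 0.05 (8.44% of all genes), namely CD74, RLA-DR-ALPHA, CIITA and B2M. DESeq2 called 3 of these, CD74, RLA-DR-ALPHA and B2M, and limma on log2(FPKM + 1) called none. All 10 were negative, as were 51.1% of all genes. The median of the 10 was -0.65, with -1.99 for class II and -0.50 for class I members, and the S7 libraries lay below the S6 libraries in 4 members, as in 10.4% of all genes. Without S6_3 the log2 fold changes were -0.85 for CD74, -1.22 for RLA-DR-ALPHA and -0.42 for CIITA. The comparisons of S9 and of S7 with S6 share the S6 libraries, so they are not independent of each other.

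Between S9 and S7 no member was called, and none had an unadjusted p below 0.05, beside 0% of all genes called by edgeR and 1575 genes (9.21%) at an unadjusted p below 0.05, of which the lower ones make 5.06% of all genes. DESeq2 and limma called no member either. The members' log2 fold changes ran from -0.89 for CIITA to -0.025 for TAPBP, all negative as were 49.9% of all genes, with a median of -0.24. CIITA was the only member whose S9 libraries lay wholly below the S7 libraries, as in 8.81% of all genes. For B2M, NLRC5, TAP1, TAP2, TAPBP and PSMB9 the sign of this difference depended on which library was left out.

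**Figure D2:**
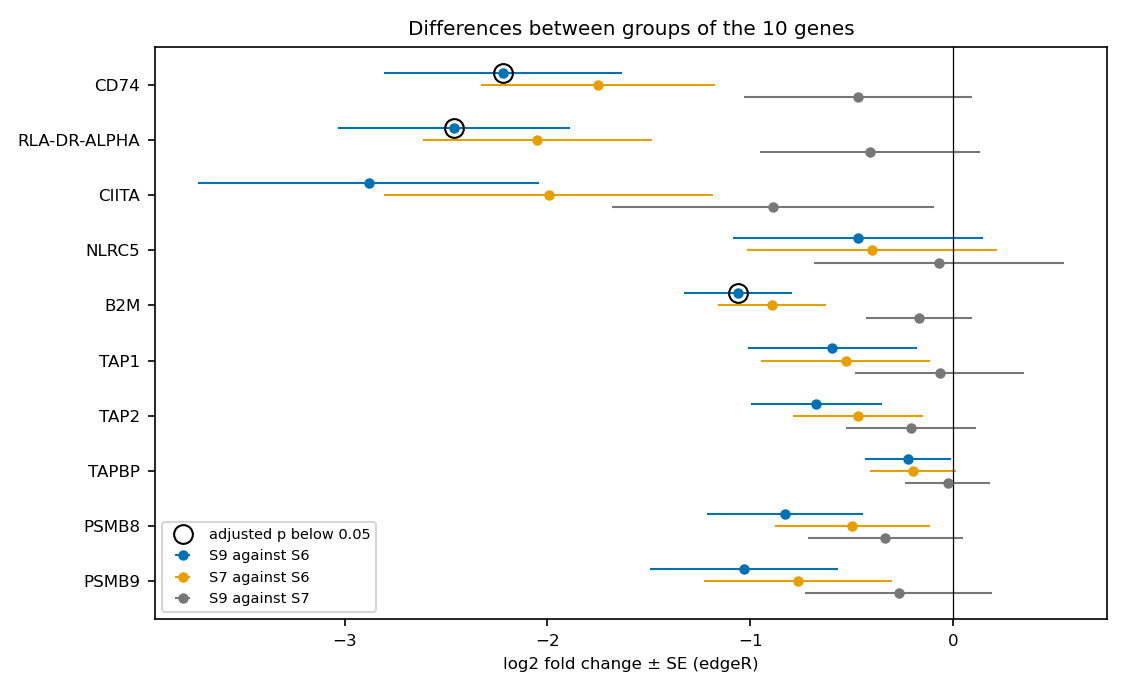
Log2 fold change (horizontal axis, with bars of 1 SE) of the 10 genes for S9 over S6, S7 over S6 and S9 over S7, from the edgeR fit across all genes and 9 libraries; rings mark an adjusted p below 0.05. The 3 class II genes lie furthest below 0 in both comparisons with S6, and CD74, RLA-DR-ALPHA and B2M carry the rings.

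Class II and class I were set against each other within each library. For each gene the log2 of CPM plus 0.5 was taken relative to its mean over the 9 libraries, and the mean of the 7 class I members was subtracted from that of the 3 class II members. The difference was -0.514, -0.762 and -0.563 in S9_1, S9_2 and S9_4, -0.336, 0.223 and -0.367 in S7_2, S7_3 and S7_4, and -0.261, 1.82 and 0.764 in S6_2, S6_3 and S6_4. Class II was thus lower relative to class I in every S9 library than in any S7 or S6 library, and S7 overlapped S6. Group means were -0.613 ± 0.131 in S9, -0.160 ± 0.332 in S7 and 0.774 ± 1.04 in S6 (SD, n = 3), and the S6 mean was 0.252 without S6_3. No test was run on this score, since its members were chosen with the data known.

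Whether S9 lay apart depended on which genes stood for each class. Without the regulators CIITA and NLRC5 the difference was -0.381, -0.856 and -0.344 in S9, -0.331, 0.110 and -0.485 in S7 and -0.255, 1.67 and 0.871 in S6, so that S9 overlapped S7 and lay below S6. With CD74 and RLA-DR-ALPHA set against B2M alone, an alternative added later, the S9 libraries had -0.524, -0.700 and -0.0996 and the S6 libraries -0.518, 1.61 and 0.534, and these overlapped. On FPKM in place of CPM it was -0.254, -0.731 and -0.476 in S9, -0.326, 0.204 and -0.421 in S7 and -0.252, 1.61 and 0.646 in S6, so that S9 overlapped S7 and lay just below S6. Between the regulators, CIITA over NLRC5 in FPKM was 0.189, 0.159 and 0.141 in the S9 libraries, 0.228, 0.497 and 0.236 in the S7 libraries and 0.354, 1.14 and 0.468 in the S6 libraries, so S9 lay below both other groups. This ratio was among several looked at and was not tested, and its genes were chosen with these data known.

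**Figure D3:**
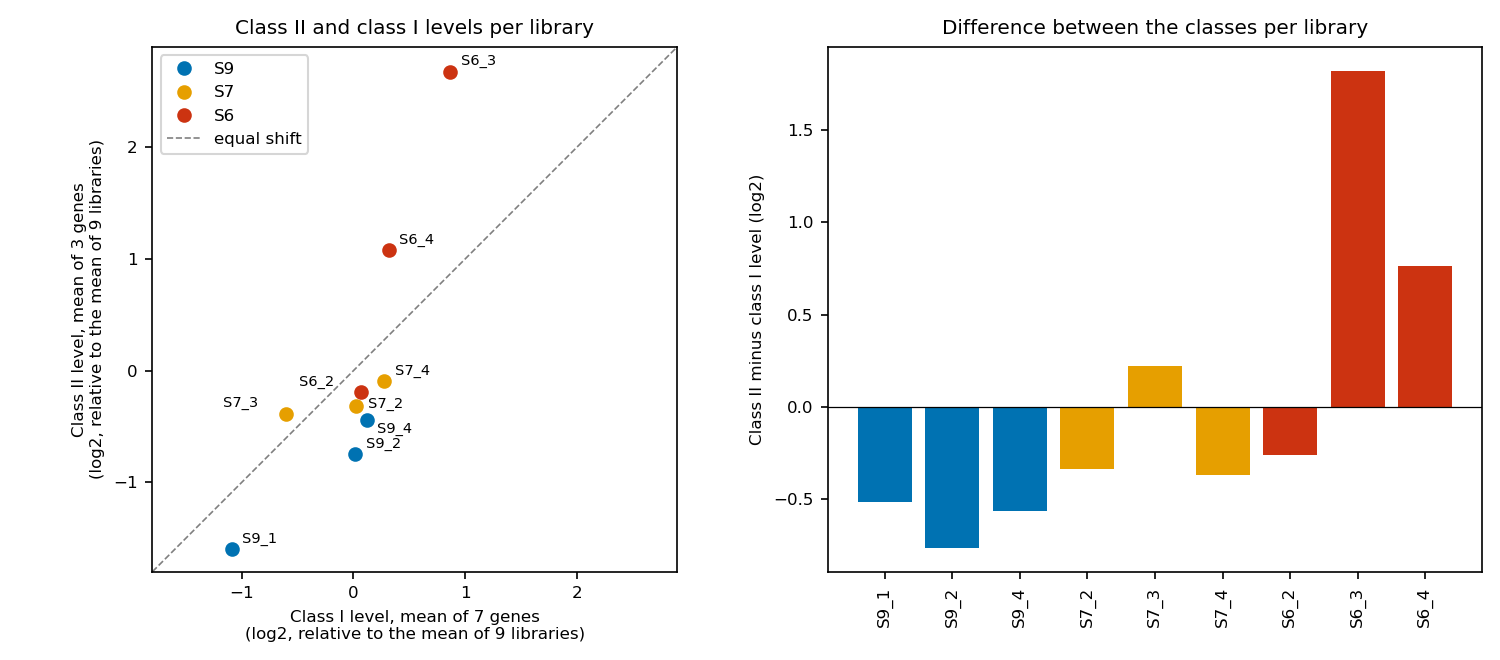
Left, the mean class II level (vertical axis) against the mean class I level (horizontal axis) of each library, both in log2 relative to the mean of the 9 libraries, with a dashed line where both shift equally. Right, the difference between the 2 classes per library, which is lowest in the 3 S9 libraries (-0.762 to -0.514) and highest in S6_3 (1.82).

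CD74 and its partner chain kept a narrow ratio. CD74 over RLA-DR-ALPHA in FPKM was 1.25, 1.66 and 1.36 in the S9 libraries, 1.58, 1.51 and 1.35 in the S7 libraries and 1.18, 1.24 and 1.13 in the S6 libraries, so S9 and S7 lay above S6.

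The order of levels per gene length was similar in the groups. In FPKM, B2M had the highest mean in each group, at 1140 ± 296 in S9, 1225 ± 334 in S7 and 2281 ± 251 in S6 (SD, n = 3). CD74 came next, at 379 ± 161 in S9, 498 ± 40.6 in S7 and 1654 ± 1297 in S6, followed by RLA-DR-ALPHA at 267 ± 119, 338 ± 41.1 and 1380 ± 1029 in S9, S7 and S6. In S6 each of these 3 genes overlapped the next, while in S9 and S7 B2M stood clear above CD74. In S6_3 the order was reversed, with CD74 at 3084, RLA-DR-ALPHA at 2497 and B2M at 2490 FPKM. PSMB9 and PSMB8 followed and overlapped in all groups, then TAPBP, TAP1 and TAP2, with TAP1 above TAPBP in S6 only and the 2 overlapping there. NLRC5, at 5.12 in S9, 5.21 in S7 and 6.76 in S6, and CIITA, at 0.797 ± 0.397, 1.42 ± 0.381 and 5.51 ± 6.18, were the lowest, and overlapped each other in S6 only.

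By the median r, members of a class were more alike across the 9 libraries than members of different classes, with overlapping ranges. On log2 CPM, Pearson's r between pairs of class II members ran from 0.923 to 0.989 (3 pairs), between pairs of class I members from 0.651 to 0.989 with a median of 0.864 (21 pairs), and between the classes from 0.443 to 0.886 with a median of 0.754 (21 pairs). Without S6_3 the medians were 0.870, 0.859 and 0.707. Over the 9 libraries B2M had an r of 0.863 with CD74 and 0.886 with RLA-DR-ALPHA, against 0.651 to 0.869 with the other class I members. All points share the 9 libraries, and each r is a description only. All 10 members were lowest in S9_1 and 9 were highest in S6_3, the exception being TAPBP. The shares of all genes lowest in S9_1 or highest in S6_3 are not given here, so these counts do not set the members apart.

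In the RefSeq annotation of assembly mOryCun1.1, RLA-DMA, RLA-DMB, PSMB9, TAP1, PSMB8 and TAP2 are consecutive protein-coding genes, a class II pair beside 4 class I genes. RLA-DMB had an r of 0.993 with CD74 and of 0.880 with its neighbour PSMB9, and of 0.980 and 0.755 without S6_3. TAP1 and PSMB8 had an r of 0.944. Where neighbours overlap, their reads cannot be told apart with the strand setting unknown.

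Among all genes with a symbol, those closest to CD74 in log2 CPM over the 9 libraries were RLA-DMB (r = 0.993), GIMAP1 (0.992), PLCB2 (0.991), SCIMP (0.990) and RLA-DR-ALPHA (0.989). GIMAP1 is a GTPase of lymphocytes, PLCB2 a phospholipase of blood cells, and SCIMP an adaptor of antigen-presenting cells that associates with class II. Those closest to PSMB9 were PSMB8 (0.989), TAP1 (0.964), RILPL2 (0.959), the interferon-gamma-induced chemokine CXCL9 (0.959) and RNF213 (0.953).

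Most leukocyte markers were lower in S9 than in S6, as were the class II genes. PTPRC, which encodes the leukocyte antigen CD45, was at 14.0, 15.7 and 26.2 CPM in S9_1, S9_2 and S9_4, at 27.1, 14.6 and 26.8 CPM in S7_2, S7_3 and S7_4, and at 34.8, 229.6 and 72.4 CPM in S6_2, S6_3 and S6_4. It was lower in S9 than in S6 (log2 ratio -2.59, edgeR adjusted p = 0.0361). The summed level of the dendritic cell markers was 21.7 to 28.2 CPM in S9, 22.7 to 29.3 CPM in S7 and 29.1 to 124 CPM in S6, with 4 of 7 tested markers called lower in S9 than in S6. The macrophage markers summed to 286 to 489 CPM in S9, 389 to 536 CPM in S7 and 675 to 1840 CPM in S6, with 5 of 9 called lower. The B and plasma cell markers summed to 904 to 1680 CPM in S9, 441 to 1550 CPM in S7 and 2200 to 3280 CPM in S6, with 4 of 8 called lower, CD79A, CD79B, CD22 and MZB1. Most of that sum was JCHAIN, the joining chain of secreted immunoglobulin, which was not called (log2 ratio -1.01, edgeR adjusted p = 0.155), and the other 7 summed to 25.2 to 29.8 CPM in S9, 19.3 to 52.8 CPM in S7 and 94.2 to 204 CPM in S6. The T and NK cell markers summed to 14.8 to 38.9 CPM in S9, 25.7 to 53.5 CPM in S7 and 43.5 to 155 CPM in S6, with 4 of 8 called lower. The B and plasma cell sum peaked in S6_4, at 3280 CPM against 2230 CPM in S6_3, and within S9 in S9_1 (1680 CPM). ZBTB46, a dendritic cell marker, alone had a positive log2 fold change for S9 over S6 (0.70, edgeR adjusted p = 0.211). Beside the counts of these lists, 6.34% of all genes tested were called lower in S9 than in S6. No marker of these lists was at 0 in all libraries. In bulk tissue fewer cells of a type and less RNA per cell cannot be told apart, and the part of leukocyte content in the class II differences was not tested.

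Relative to PTPRC, CD74 overlapped between S9 and either other group, while S7 lay wholly above S6. The FPKM ratio of CD74 to PTPRC was 91.3, 132 and 115 in S9_1, S9_2 and S9_4, 113, 190 and 110 in S7_2, S7_3 and S7_4, and 91.1, 82.5 and 103 in S6_2, S6_3 and S6_4. The means were 113 ± 20.4 in S9 and 92.2 ± 10.4 in S6 (SD, n = 3). For B2M over PTPRC the S9 libraries had 321, 455 and 289, the S7 libraries 237, 406 and 343 and the S6 libraries 329, 66.6 and 183, and these overlapped too. Over the 9 libraries r with PTPRC was 0.967 for CD74, 0.864 for PSMB9 and 0.532 for TAPBP, and without S6_3 it was 0.902, 0.714 and 0.827.

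**Figure D4:**
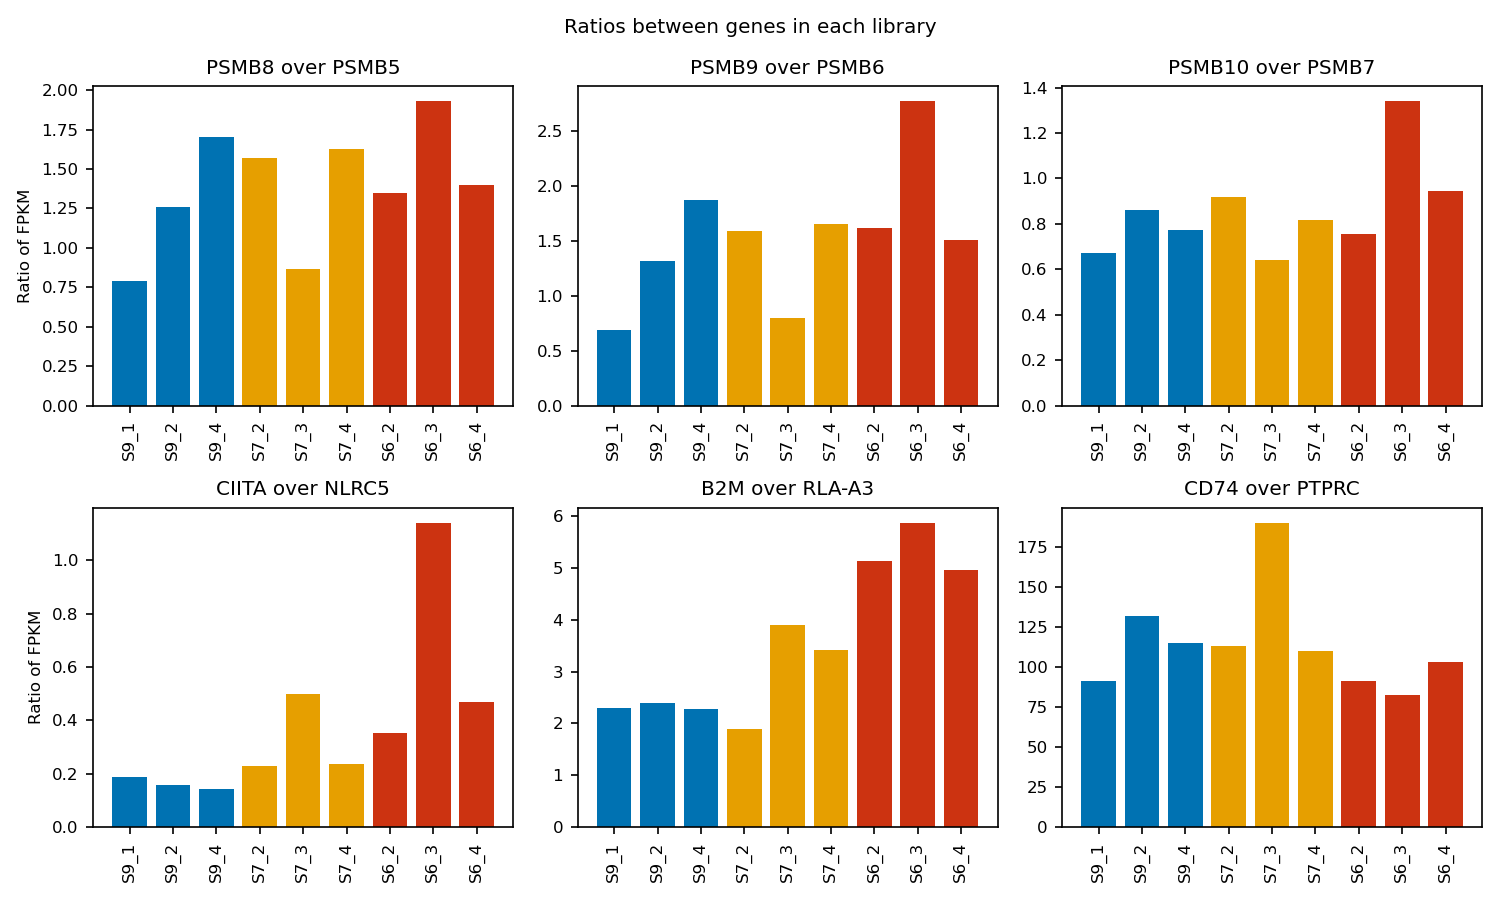
Ratios of FPKM between pairs of genes (vertical axes start at 0) in each of the 9 libraries, coloured by group. The inducible over standard proteasome subunits overlap between groups, CIITA over NLRC5 and B2M over RLA-A3 are lower in all S9 than in all S6 libraries, and CD74 over PTPRC lies between 82.5 and 132 in all libraries but S7_3 (190).

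The tissue markers were present in all groups and differed in mix. Smooth muscle markers summed to 5550 to 11000 CPM in S9, 2510 to 9070 CPM in S7 and 1600 to 2930 CPM in S6, with 4 of 5 called higher in S9 than in S6. Markers of urothelium and stratified epithelium summed to 1560 to 4400 CPM in S9, 2730 to 4550 CPM in S7 and 2880 to 3840 CPM in S6, with none of 9 called by edgeR and, at an unadjusted p below 0.05, 1 higher and 3 lower. Of their defining genes the keratin KRT13 was at 58.8 FPKM or more in every library. The uroplakins UPK1A, UPK1B, UPK2 and UPK3A did not exceed 6.52 FPKM in any. They split in direction for S9 over S6, with log2 ratios of 2.22 for UPK1B and 0.40 for UPK2. Those of UPK1A and UPK3A were -4.45 and -3.50, both at 13 counts or fewer in every S9 library. Endothelial markers summed to 920 to 2140 CPM in S9, 867 to 1990 CPM in S7 and 1160 to 1380 CPM in S6. Fibroblast markers summed to 25100 to 29700 CPM in S9, 27800 to 69700 CPM in S7 and 16900 to 28900 CPM in S6, with the highest sum in S7_3. Between S9 and S6 none was called by edgeR in either list and, at an unadjusted p below 0.05, 2 higher in the first and 1 in the second. Neutrophil markers summed to 434 to 758 CPM in S9, 2910 to 6520 CPM in S7 and 8310 to 15700 CPM in S6. All 5 tested were called lower in S9 than in S6. Most of that sum was S100A8, S100A9 and S100A12, while CSF3R and CXCR2 averaged 9.60 and 22.1 CPM in S6. Beside these counts, 6.34% of all genes tested were called lower in S9 than in S6 and 6.02% higher. At an unadjusted p below 0.05, 15.8% of all genes were lower. The matching share of higher genes is not given here, so the counts of higher genes at that threshold cannot be set against all genes. The part of this tissue mix in the members' differences was not tested.

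Both receptor chains for interferon-gamma were lower in S9 than in S6. IFNG, the ligand, had 0, 0 and 1 counts in S9_1, S9_2 and S9_4, 7, 1 and 3 counts in S7_2, S7_3 and S7_4, and 4, 89 and 5 counts in S6_2, S6_3 and S6_4, too few for the test. S6_3 alone had more than 7. IFNGR1, the ligand-binding receptor chain, averaged 91.3 ± 3.41 CPM in S9, 94.1 ± 7.53 CPM in S7 and 199.9 ± 15.5 CPM in S6 (SD, n = 3). Every S9 and S7 library lay below every S6 library (log2 ratio -1.13 for S9 over S6, SE 0.12, edgeR adjusted p = 0.00941, and -1.09 for S7 over S6, edgeR adjusted p = 0.0445). IFNGR2, the other receptor chain, at -1.19, and the kinase JAK2, at -0.94, were also lower in S9 than in S6 (edgeR adjusted p = 0.0196 each).

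IRF1, a factor that drives class I and CIITA transcription, was at 228.8 ± 69.1 CPM in S9, 299.5 ± 63.0 CPM in S7 and 459.8 ± 116.9 CPM in S6, and just missed the threshold (log2 ratio -1.01, edgeR adjusted p = 0.0502). Of 10 tested genes of the interferon-gamma pathway 5 were called lower in S9 than in S6, with IRF2 and IRF8 beside those named. In S7 over S6 1 was called lower, IFNGR1. The shares of all genes called lower were 6.34% in S9 over S6 and 0.0643% in S7 over S6. IRF1 had an r of 0.949 with PSMB9 over the 9 libraries, and of 0.914 without S6_3.

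Of 6 tested costimulation genes, ICAM1, an adhesion molecule, and CD86, a ligand of CD28, were called lower in S9 than in S6. The share of all genes called lower was 6.34%. ICAM1 was at 51.0 ± 4.56 CPM in S9, 62.2 ± 12.4 CPM in S7 and 136.9 ± 18.9 CPM in S6 (S9 over S6 log2 ratio -1.43, SE 0.18, edgeR adjusted p = 0.0127), and CD86 at 2.68 ± 0.349 CPM in S9, 2.51 ± 0.286 CPM in S7 and 13.7 ± 9.77 CPM in S6 (S9 over S6 log2 ratio -2.36, edgeR adjusted p = 0.0261). CD80, the partner ligand, was not called (log2 ratio -1.95, edgeR adjusted p = 0.0523, and -1.30 without S6_3). Among 8 class I-like genes only CD1A, a lipid-presenting molecule of dendritic cells, was called. CD1A had 0 counts in the S9 libraries, 21 in the S7 libraries and 48 in the S6 libraries, which makes it at least 16.1-fold lower in S9 with the floor set at 3 counts summed over the 3 libraries and covers counting error only. S6_3 held 30 of the S6 counts, and without it the bound was 8.95-fold. AZGP1, a soluble class I-like protein, was at 6.70, 8.22 and 31.6 CPM in S9 and 3.39, 1.67 and 2.39 CPM in S6, with S9 wholly above S6, and was not called (log2 ratio 2.64, edgeR adjusted p = 0.0533, and 1.60 without S9_4). CD1B, another lipid-presenting molecule, was not called either (log2 ratio -3.04, edgeR adjusted p = 0.118). Its difference rested on S6_3, which held 543 counts against 22 in S6_2 and 69 in S6_4, and was -0.67 without that library.

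Calls in these lists depended on single libraries as the members did. Of all genes tested, 6.34% were called lower in S9 than in S6 and 6.02% higher. Most of the 37 pathway and leukocyte genes named beside the members were chosen for a small p in this comparison or after their values were seen. The count of calls among them is therefore partly set by that choice. Of these 37 genes, 22 were called in S9 over S6. Of these 22, none was called by edgeR without S9_1 (adjusted p of 0.0698 to 0.168) or S9_2 (0.0532 to 0.146), 2 without S6_4 (0.0547 to 0.136 for the rest), 10 without S6_3 (0.0507 to 0.122), 11 without S7_4, 15 without S7_2 or S9_4, 17 without S7_3 and 20 without S6_2. In the 6 libraries rich in ATP6 none of the 22 was called (0.0584 to 0.237). Calls over all genes fell as well, from 2115 of 17102 genes tested with all 9 libraries. They numbered 0 of 17557 without S9_1, 4 of 17553 without S9_2, 89 of 17531 without S6_4 and 1025 of 17536 without S6_3. Without S7_4 they numbered 1197 of 17585, and in the 6 libraries 7 of 17223. With any other library left out they numbered 1947 to 2076. Without S6_3 the log2 fold change was -1.47 for RLA-DMB, -1.79 for RLA-DRB1, -0.63 for PSMB10, -0.49 for PSMA2, -1.77 for MARCHF1, -0.99 for IRF8 and -1.51 for PTPRC, each moved by over 1.5 times.

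In the 6 libraries rich in ATP6 alone, 2 per group, CD74 had a log2 fold change of -2.73 (edgeR adjusted p = 0.121), RLA-DR-ALPHA of -2.99 (0.0984) and B2M of -1.20 (0.120) for S9 over S6, each as large as with all 9 libraries but not called. Among all genes, 7 of 17223 were called in these 6 libraries. Short genes were high in S6_3, where the length trend came to 0.40 on the log2 scale for PSMB9 and 0.31 for B2M, and with a correction for gene length CD74 had a log2 fold change of -1.93 (edgeR adjusted p = 0.0529) and B2M of -0.78 (0.0669), while RLA-DR-ALPHA was still called.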

How the data were processed

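The counts deposited by the authors are raw reads for each gene. The submitters' processing notes name fastp, HISAT2 and HTSeq. Versions, genome build and strand setting were not given in the sources used here. FPKM values deposited by the authors cover the same genes and libraries and served for ratios between genes and for an alternative test. Columns were matched to libraries by title. Genes with a symbol in the lists but a LOC number in the table were found through RefSeq gene IDs of assembly mOryCun1.1. Genes were kept by filterByExpr (minimum count 10, minimum total 15), scaled by TMM and fitted in 1 model of 3 groups with edgeR 4.0.16 (robust quasi-likelihood, R 4.3.3). P-values were adjusted by Benjamini-Hochberg over all genes tested, with a threshold of 0.05. SEs are the size of the log2 fold change over the root of F. The pipeline was tested on simulated data.

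The members and lists were chosen with earlier results of these data known. Named were all 10 members, the 3 genes with the smallest p in S9 over S6 of each pathway list, the standard proteasome partners, IFNG and IRF1, and the 5 nearest genes to CD74 and PSMB9. CTSB, MARCHF1, IRF2, IRF8, UPK2, KRT13, ATP6, JCHAIN, CD79A, CD79B, CD22, MZB1, PTPRC, RLA-A3 and RLA-DRB1 were named after their values were seen. So were ZBTB46, UPK1A, UPK1B, UPK3A, S100A8, S100A9, S100A12, CSF3R and CXCR2. The class II and class I rows that would have been chosen by a RefSeq description were not used here, since the table holds no descriptions. A result that the rule names is not reported here. Alternatives were DESeq2 1.42.0, DESeq2 size factors, no filter, limma 3.58.1 on log2 FPKM with 1 or 0.1 added, a replicate block, each library left out, and the mitochondrial split. A gene length correction (natural spline, 5 df) was added after seeing the data.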

Additional observations from a re-analysis of the deposited data

How the results depend on the processing

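Over 18 alternatives for each of the 10 members, S9 over S6 kept direction and side of the threshold in 147 of 180 values, lost a call in 29, gained one in 2 and changed sign in 2. Genes called in S9 over S6 numbered 4112 by DESeq2, 16 with the replicate block and 7 in the 6 libraries rich in mitochondrial transcripts, and 0 to 2076 with 1 library left out. Members called numbered 0 with the block and in the 6 libraries, 1 with the length correction, and 0 to 4 with 1 library left out. In S7 over S6, 1417 genes were called by DESeq2, 52 by limma with 1 added to FPKM and 37 with 0.1, 1 with the block, 0 in the 6 libraries and 4 with a term for mitochondrial class, and 0 to 10 with 1 library left out, and DESeq2 called 3 members. In S9 over S7, 123 genes were called by DESeq2 and 1 in the 6 libraries, and 0 to 1 with 1 library left out.

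The labels do not say what a replicate number marks, and the rule for pairing, every same-number pair above an r of 0.1, was not met (r of -0.065 to 0.138 over 7 such pairs, 3 above 0.1, against -0.178 to 0.103 over the 20 other pairs). In these data 6 of 8 libraries were closest to their own number. Among them were S6_4 and S9_4 (r of 0.127), both scarce in ATP6. So were S7_3 and S9_4, the closest pair with different numbers (0.103). Shared number and shared ATP6 level were not tested apart. S9_1 was the only library with replicate number 1, so a block term fitted it alone and took it out of the comparisons. Changes with the block thus mix any pairing with the loss of S9_1 and cannot be told apart. Without S9_1 and with no block, CD74 was at -1.94, RLA-DR-ALPHA at -2.23 and B2M at -0.85 in S9 over S6. With the replicate block, CD74 was at -1.38 (edgeR adjusted p = 0.259), RLA-DR-ALPHA at -1.74 (0.171) and B2M at -0.86 (0.148) in S9 over S6, and none of the 22 other pathway and leukocyte genes called was called (0.0569 to 0.286). With it, the S9 over S6 log2 fold change was 0.11 for NLRC5, turned in sign, and S9 over S7 ones were 0.00056 for CD74, 0.045 for B2M, 0.41 for NLRC5, 0.28 for TAP1, 0.036 for TAP2, 0.032 for TAPBP, 0.0053 for PSMB8 and 0.11 for PSMB9. Other changes of sign were TAPBP in S7 over S6 in the 6 libraries (0.069), and in S9 over S7 NLRC5 with the mitochondrial term (0.025) and TAPBP by limma (0.045 and 0.046) and with the length correction (0.056). With 1 library left out, NLRC5 ran from -0.84 to 0.16 in S9 over S6 and from -0.79 to 0.22 in S7 over S6, and RLA-A3 from -0.0099 to 0.34 in S9 over S6. In S9 over S7, B2M ran from -0.29 to 0.060, NLRC5 from -0.44 to 0.34, TAP1 from -0.30 to 0.28, TAP2 from -0.44 to 0.11, TAPBP from -0.18 to 0.14 and PSMB9 from -0.61 to 0.071. Which property of the libraries or settings causes these changes was not tested.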
